A study of Mus musculus with 2 samples.

Results

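The cytosolic ribosomal protein genes encode the protein part of the ribosomes that translate nuclear messenger RNA, and their transcripts were followed here in lymph node T, B and natural killer (NK) cells of a wild-type (WT) and an RPA1 conditional knockout (CKO) library. Members were all gene symbols that begin with Rpl or Rps and a digit, together with Rplp0, Rplp1, Rplp2 and Rpsa. S6 kinase symbols (Rps6k), Rps27l and symbols marked as pseudogenes with -ps were left out. The rule found 85 of the 32285 genes in the files. Of these, 77 are the standard ribosomal proteins, 46 of the large and 31 of the small subunit, 7 are near-copies or paralogs (Rps27rt, Rpl22l1, Rpl36al, Rpl39l, Rpl3l, Rpl10l and Rpl7l1), and Rps19bp1 shares the prefix but encodes an RPS19-binding protein. Each genotype was 1 droplet library of transcript 3′ ends from C57BL/6 mice, with unique molecular identifiers (UMIs) marking captured molecules. RPA1 belongs to replication protein A, the complex that binds exposed single DNA strands during replication and repair. The sources used here do not give the cell type in which the knockout was driven or the number of mice per library. With 1 library per genotype no test against variation between animals was possible, so every difference is described with its size and with an exact 95% interval that covers counting error only.

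Ribosomal proteins are needed in a nearly fixed ratio and bind ribosomal RNA in the nucleolus before the subunits leave the nucleus. Many of their messenger RNAs start with a run of pyrimidines, the terminal oligopyrimidine tract, through which TORC1 and the RNA-binding protein LARP1 control their translation and stability. Naive lymphocytes are small resting cells, and after an antigen signal they grow and expand their ribosome pool. Some ribosomal proteins also act outside the ribosome, such as RPL5 and RPL11, which together with 5S ribosomal RNA inhibit the p53 ligase MDM2.

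The WT library held 12769 barcodes and 84813609 UMIs and the CKO library 13754 barcodes and 76200586 UMIs, with a median of 5984 and 4549 UMIs per barcode. After filters on depth, mitochondrial share and doublets, 11169 WT and 11804 CKO cells were kept, and 46 kept barcodes occurred in both libraries. T cells had at least 2 UMIs of Cd3d, Cd3e and Cd3g together and none of Cd79a (7721 WT and 3526 CKO cells), B cells had at least 2 UMIs of Cd79a and none of Cd3e (2755 and 7344), and NK cells had at least 1 UMI of Ncr1 and none of Cd3e (80 and 235). Within the T gate, subsets were cells with Cd4 (2808 and 1346), with Cd8b1 (2778 and 460), with Foxp3 (268 and 235) and with Trdc (225 and 607). Cd4 cells had no UMI of Cd8b1, Foxp3 or Trdc, and Cd8b1 cells none of Cd4, Foxp3 or Trdc. Foxp3 cells had none of Trdc, and Trdc cells none of Foxp3. The remaining 1642 WT (21.3%) and 878 CKO (24.9%) T cells were in no subset gate. All 12 T cell markers were detected in the T gate of both libraries. So were all 9 B cell markers in the B gate and all 7 NK cell markers in the NK gate. These lists hold the genes that set the gates, so detection alone does not establish the cell type of a gate. All 7 NK cell markers were also detected in the T and B gates, and all 9 B cell markers in the NK gate. The B cell markers summed to 305 CPM (UMIs scaled to a total of 1000000 per gate) in the T gate of each library, with Cd79a at 0 by the gate, and the NK cell markers to 379 CPM in WT and 499 CPM in CKO. The level of Rpa1 in T cells was 40.5 CPM in the WT and 26.2 CPM in the CKO library (CKO over WT 0.647, 0.589 to 0.709). The subsets differed, with ratios of 0.510 (0.433 to 0.597) in CD4 and 0.774 (0.613 to 0.966) in CD8 cells. In Foxp3 cells the ratio was 0.793 (0.532 to 1.17) and in Trdc cells 0.884 (0.647 to 1.22), with intervals that held 1. The B cell level of Rpa1 was 40.8 and 35.8 CPM (0.877, 0.791 to 0.974), and its NK cell level 42.1 and 54.8 CPM on 20 and 78 UMIs. The NK gate held larger sums of B cell markers than the T gate did: 1027 CPM for the WT cells, against 788 CPM for the CKO cells. T cell markers there, with Cd3e at 0 by the gate, reached 861 (WT) and 827 CPM (CKO). In the B gate the T cell markers came to 93.7 (WT) and 67.5 CPM (CKO). What these transcripts contributed to the ratios was not tested. Counts summed per gate cannot tell fewer molecules per cell in all cells from a different mix of cells within a gate.

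Ribosomal protein transcripts took a smaller share of the UMIs of CKO T cells than of WT T cells, nearly the same share in B cells, and a slightly larger share in NK cells. In T cells the 85 members together made up 37.0% of UMIs in WT and 33.9% in CKO, a ratio of 0.916 (0.915 to 0.916), or a log2 ratio of -0.13. Per cell, the median share was 37.2% in WT and 33.8% in CKO T cells, and the middle 80% of cells lay between 29.1% and 43.5% in WT and between 24.9% and 41.4% in CKO. The cells of both libraries thus overlapped over most of their range. A mean T cell carried 2530.0 ribosomal protein UMIs in WT and 2136 in CKO, beside 4309 and 4169 UMIs of all other genes. In B cells the share was 28.1% in WT and 27.4% in CKO, a ratio of 0.972 (0.971 to 0.974). In NK cells it was 22.8% and 23.9%, a ratio of 1.05 (1.04 to 1.06), but the medians per cell, 22.2% and 22.6%, were close together and the WT gate held 80 cells. Large subunit genes together had a ratio of 0.919 (0.918 to 0.920) in T cells and small subunit genes one of 0.912 (0.911 to 0.914), with member medians of -0.10 and -0.14 on the log2 scale. Mitochondrially encoded transcripts took 2.87% of UMIs in WT and 2.74% in CKO T cells, and 3.50% and 3.76% in B cells. Some other cell states also differed within the gates. Markers of cycling cells summed in T cells to 70.7 CPM for WT and 95.8 CPM for CKO, and to 97.5 and 31.6 CPM in B cells. The CD8, Foxp3 and Trdc subsets shared the direction of all T cells, and the CD4 subset went the other way. The cycling sum was 80.4 and 48.3 CPM in CD4, 67.0 and 118 CPM in CD8, 147 and 193 CPM in Foxp3, and 57.1 and 196 CPM in Trdc cells. Markers of plasma cells summed to 1414 and 561 CPM in B cells. The part of these cell states in the shares was not tested.

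**Figure D1:**
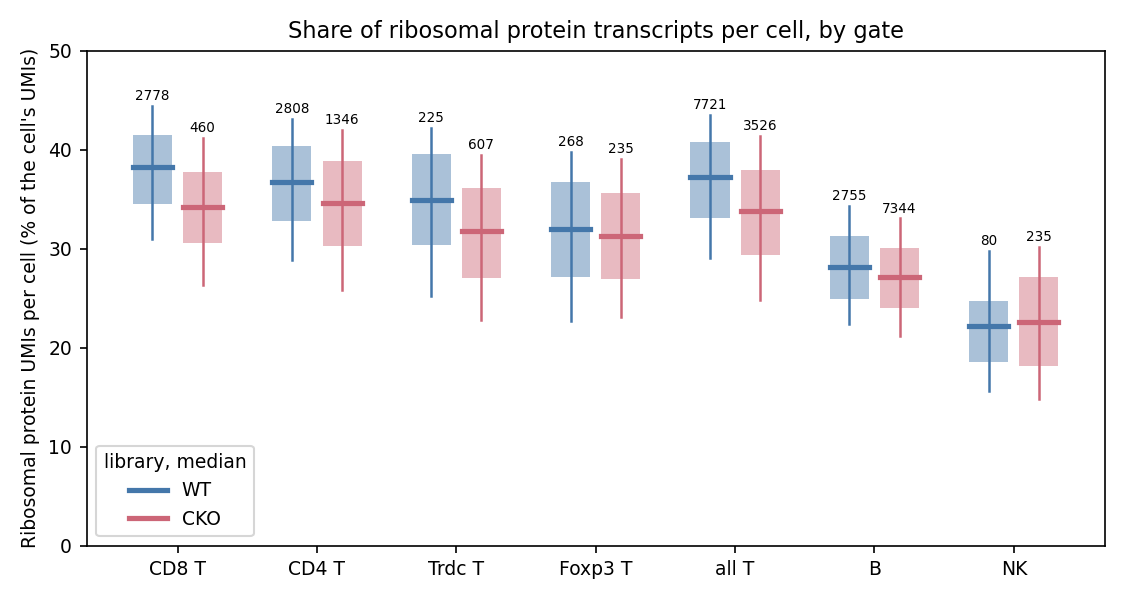
Share of each cell's UMIs that came from the 85 members (y axis, percent) in each gate (x axis) for the WT and CKO libraries; thick lines are medians over cells, boxes the middle 50%, thin lines the middle 80%, and the numbers above give the cells. The CKO median lies below the WT median in all T gates and in B cells, by 3.4 points in all T cells, and the NK medians lie at 22.2% and 22.6%.

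Among the 4 T cell subset gates the ratio was lowest in CD8 cells and closest to 1 in Foxp3 cells. CD8 T cells stood at 38.1% in WT and 34.2% in CKO (ratio 0.897, 0.895 to 0.899), and CD4 T cells at 36.5% and 34.8% (ratio 0.954, 0.953 to 0.955). In Foxp3 T cells, the gate for regulatory cells, the shares were 32.4% and 32.1%, a ratio of 0.993 (0.989 to 0.997). Cells with a Trdc UMI, the constant segment of the T cell receptor δ chain, stood at 35.2% and 31.8%, a ratio of 0.904 (0.901 to 0.907). That gate was mixed, since 63.1% of its WT and 54.0% of its CKO cells also had a UMI of Cd4 or Cd8b1. Without those cells, 83 WT and 279 CKO cells remained with shares of 31.7% and 30.7% and a log2 ratio of -0.049, against -0.15 in the whole gate, and the cells with such a UMI stood at 36.7% and 32.5%, a ratio of 0.886 (0.882 to 0.889). A UMI of a γ chain constant segment was found in 30.2% of the WT and 71.3% of the CKO cells of the gate. Other markers moved with it: all 7 NK cell markers were detected in both libraries and summed to 625 CPM in WT and 1448 CPM in CKO, 2 and 5 of the 5 monocyte or macrophage markers to 3.36 and 98.6 CPM (Csf1r, C1qa and Fcgr1 were at 0 in WT), and the 3 markers of cycling cells to 57.1 and 196 CPM. Their part in the ratio was not tested.

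The T gate also differed in make-up between the libraries. CD8 cells were 2778 of 7721 WT and 460 of 3526 CKO T cells, and cells with Trdc were 2.91% and 17.2%. With the subsets weighted as in WT, the log2 ratio of the summed members in T cells was -0.11, and weighted as in CKO it was -0.094, compared with -0.13 without weighting. The lower share was seen at every depth in T cells: in each of 8 ranges of UMIs per cell, the log2 ratio lay between -0.19 and -0.10. In B cells it lay between -0.12 and -0.0037 in 7 ranges and was 0.17 in cells with 12000 UMIs or more, where 65 WT and 86 CKO cells remained. In NK cells 2 ranges held enough cells, and there the sign turned, to -0.13 for 4000 to 5000 UMIs and -0.022 for 5000 to 6000 UMIs. The log2 ratios were also close to each other in cells with and without a UMI of Isg15, an interferon-stimulated gene whose positive share was larger in CKO: -0.062 with and -0.069 without Isg15 in CD4 cells, -0.16 and -0.14 in CD8 cells, and -0.057 and -0.034 in B cells.

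**Figure D2:**
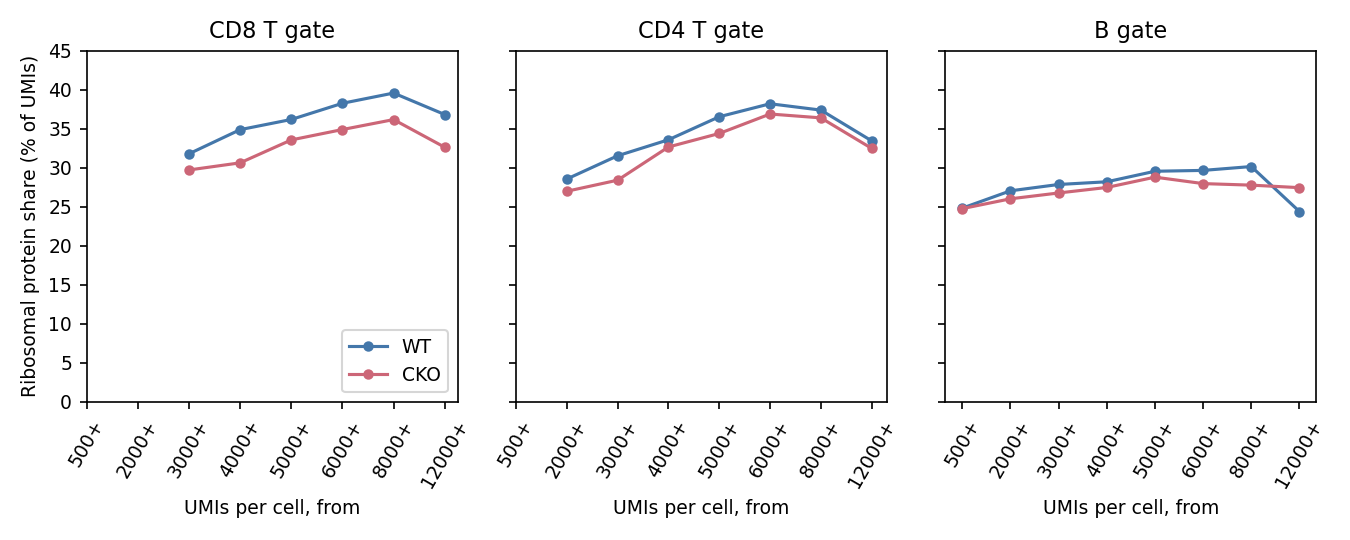
Share of UMIs from the 85 members (y axis, percent) in cells grouped by their total UMIs (x axis, lower limit of each range) for CD8 T, CD4 T and B cells; ranges with fewer than 20 cells in a library are left out. The CKO points lie below the WT points in every range shown for CD8 and CD4 T cells, and in B cells in all ranges but the deepest.

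Most single members shared the small shift in T cells, and few went beyond it. Of the 85, 81 reached 50 CPM in at least 1 library, and the other 4 (Rpl39l, Rpl3l, Rpl10l and Rps19bp1) did not. In T cells 75 of the 81 were lower in CKO and 6 higher, where 21.8% of all 2812 genes at that level were lower. The members' median log2 ratio was -0.12, with the middle 50% between -0.17 and -0.075, and that of all genes was 0.091. These shares sum to a fixed total, so lower values of genes that hold 37.0% of UMIs place other genes higher by arithmetic. On totals without ribosomal protein and mitochondrial genes, 78 of the 81 members were lower. Those totals moved every gene in T cells by -0.076 on the log2 scale, so the 21.8% is no background for that count. The share of all genes that were lower on them is not given here. At 1.1-fold, 36 members were lower (6.08% of all genes) and 2 higher (33.4%). A ratio of 0.8 or less was found for 1 member, Rps27rt (1.42%), and a ratio as far above 1 for none (6.12%).

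In B cells 68 of 81 members were lower in CKO, where 38.0% of all genes were, with a median of -0.060 against 0.038 for all genes. Of these, 5 were lower by 1.1-fold (8.41%), and Rps27rt alone had a ratio of 0.8 or less (2.15%). In CD8 T cells 76 members were lower (23.3% of all genes) and 48 by 1.1-fold (8.52%), and in CD4 T cells 71 were lower (31.2%) and 9 by 1.1-fold (7.21%). In Foxp3 T cells 51 were lower (46.1%), and in cells with Trdc 72 (39.0%) and 44 by 1.1-fold (17.7%). In NK cells 62 were higher (47.4%), 4 of them by at least the inverse of 0.8 (12.6%): Rpl35, Rps29, Rps2 and Rpl7l1. Rps27rt was the single member at 0.8 or less in NK cells (17.2%). The counts for T, B and NK cells come from the same pair of libraries, and the gates overlapped slightly: 8 WT and 17 CKO cells were in both the T and NK gates, and 3 and 9 in both the B and NK gates.

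**Figure D3:**
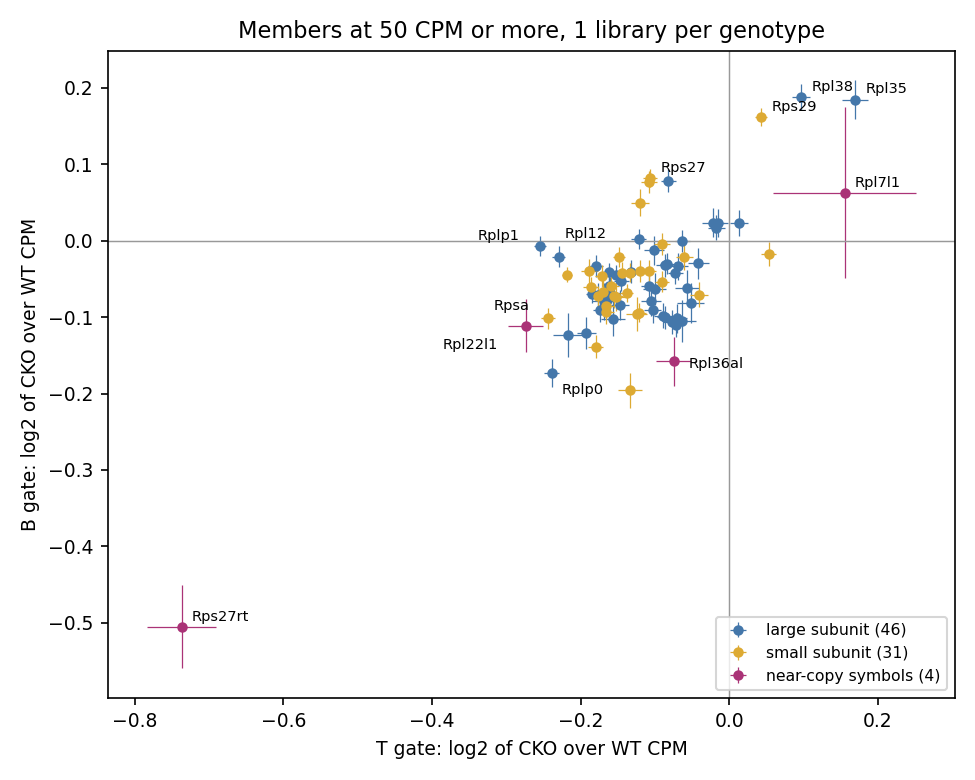
Log2 of CKO over WT CPM in T cells (x axis) and B cells (y axis) for the 81 members at 50 CPM or more, with exact 95% intervals for counting error; 0 means no difference. Most points lie left of and slightly below 0, Rps27rt stands apart at -0.74 and -0.51, and Rpl35 and Rpl38 lie above 0 in both.

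Summed over its genes, the P stalk of the large subunit stood below the sum of the other members in T cells. It is the flexible arm of RPLP0, RPLP1 and RPLP2 on its base RPL12 that brings elongation factors to the ribosome. Together these 4 genes took 2.79% of UMIs in WT and 2.38% in CKO T cells, a ratio of 0.853 (0.851 to 0.856) and a log2 ratio of -0.23, against -0.12 for all other members. Rplp0, Rplp1 and Rpl12 were named by their ratios and Rplp2 after its value was seen, so the sum only describes a chosen set. Outside the stalk, Rpl22l1 (-0.27) and Rpsa (-0.24) also stood below this sum. The stalk stood at -0.26 in CD8, -0.17 in CD4, -0.10 in Foxp3 and -0.21 in Trdc T cells. In B cells it stood at -0.044, beside -0.040 for the other members, and in NK cells at 0.057. Rplp1, an acidic stalk protein, had 9178 CPM in T cells of the WT and 7691 CPM in those of the CKO library (ratio 0.838, 0.833 to 0.843), and 5354 and 5329 CPM in B cells (0.995, 0.987 to 1.004). Rpl12 stood at 7367 and 6284 CPM in T cells (0.853, 0.848 to 0.858) and at 4319 and 4258 CPM in B cells (0.986, 0.976 to 0.995). Rplp0, the stalk's anchor, differed from these, with 5348 and 4532 CPM in T cells (0.847, 0.841 to 0.853) and also lower values in B cells, 2769 and 2456 CPM (0.887, 0.876 to 0.898). Rplp2 had ratios of 0.883 in T cells and 0.977 in B cells. Rplp1 and Rpl12 were among the 3 of these 81 members whose log2 ratio in T cells lay farthest below that in B cells, by -0.25 and -0.21, the other being Rps27rt.

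Other large subunit genes at the low end in T cells included Rpl4, with 1399.8 CPM in WT and 1204 CPM in CKO (ratio 0.860, 0.848 to 0.872), and Rpl5, with 3633 and 3179 CPM (0.875, 0.868 to 0.883). Rpl5 was lowest in cells with Trdc, at 3381 and 2607 CPM (0.771, 0.746 to 0.797), and without the cells that also had a Cd4 or Cd8b1 UMI its ratio there was 0.877 (0.824 to 0.933). Its partner Rpl11 stood at 0.931 in T cells and at 0.939 in B cells, so that the pair that binds MDM2 differed in size of shift. Rpl23, a further MDM2-binding protein, had a ratio of 0.894 in T and 0.972 in B cells. Rpl22, which αβ T cell development needs, stood at 2294 and 2140 CPM in T cells (0.933, 0.923 to 0.943).

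In the small subunit, Rpsa was lowest in T cells, with 6240.1 CPM in WT and 5268 CPM in CKO (ratio 0.844, 0.839 to 0.850). It encodes a protein at the subunit's mRNA exit side, also known as the laminin receptor. Rpsa was 1 of 3 members at 0.8 or less in Foxp3 T cells (3.70% of members, 10.0% of all genes), where it stood at 5921 and 4716 CPM (0.796, 0.773 to 0.821). Rps24, with the highest count of all members, stood at 12491 and 10737 CPM in T cells (0.860, 0.856 to 0.864), at 9379 and 9095 CPM in B cells and at 7196 and 6831 CPM in NK cells. It was among the members below 1 in all 7 gates, together with Rpl5 and Rps27rt. Rps3a1 was 1 of 4 members at 0.8 or less in cells with Trdc (4.94% of members, 5.62% of all genes), with 5211 and 4159 CPM (0.798, 0.777 to 0.820). The other 3 were Rps27rt, Rpl22l1 and Rpl5. Without the cells with a Cd4 or Cd8b1 UMI, only Rps27rt and Rpl22l1 were at 0.8 or less (2.47% of members, 13.6% of all genes). Rps3a1 there stood at 0.869 (0.828 to 0.912). Such members were thus no more frequent than genes at large in these gates. Rps19, mutated in Diamond-Blackfan anaemia, had ratios of 0.879 in T and 0.959 in B cells, and Rps14, lost in the 5q- syndrome, 0.927 and 0.973.

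A few members were higher in CKO. Rpl35, which sits beside the tunnel exit of the large subunit, was higher in CKO in all 7 gates: 1623 and 1825 CPM in T cells (ratio 1.12, 1.11 to 1.14), 1297 and 1474 CPM in B cells (1.14, 1.12 to 1.16) and 852 and 1177 CPM in NK cells (1.38, 1.24 to 1.54). Rpl38, a small protein known from axial skeleton patterning in the Tail short mouse, was higher in 7 gates as well, with 3350.5 and 3582 CPM in T cells (1.07, 1.06 to 1.08) and 2842 and 3237 CPM in B cells (1.14, 1.13 to 1.15). On totals without ribosomal protein and mitochondrial genes Rpl35 stayed above 1 in 7 gates and Rpl38 in 6, its CD8 value then being -0.047 on the log2 scale. Rps29, of the small subunit's head, was near 1 in T cells (1.03, 1.02 to 1.04) and higher in B cells (5484 and 6136 CPM, ratio 1.12, 1.11 to 1.13) and NK cells (3742 and 4901 CPM, ratio 1.31, 1.24 to 1.38). On those other totals its T cell value was below 1. The 4 X-linked standard members, Rpl10, Rpl36a, Rpl39 and Rps4x, together had log2 ratios of -0.11 in T and -0.0032 in B cells.

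**Figure D4:**
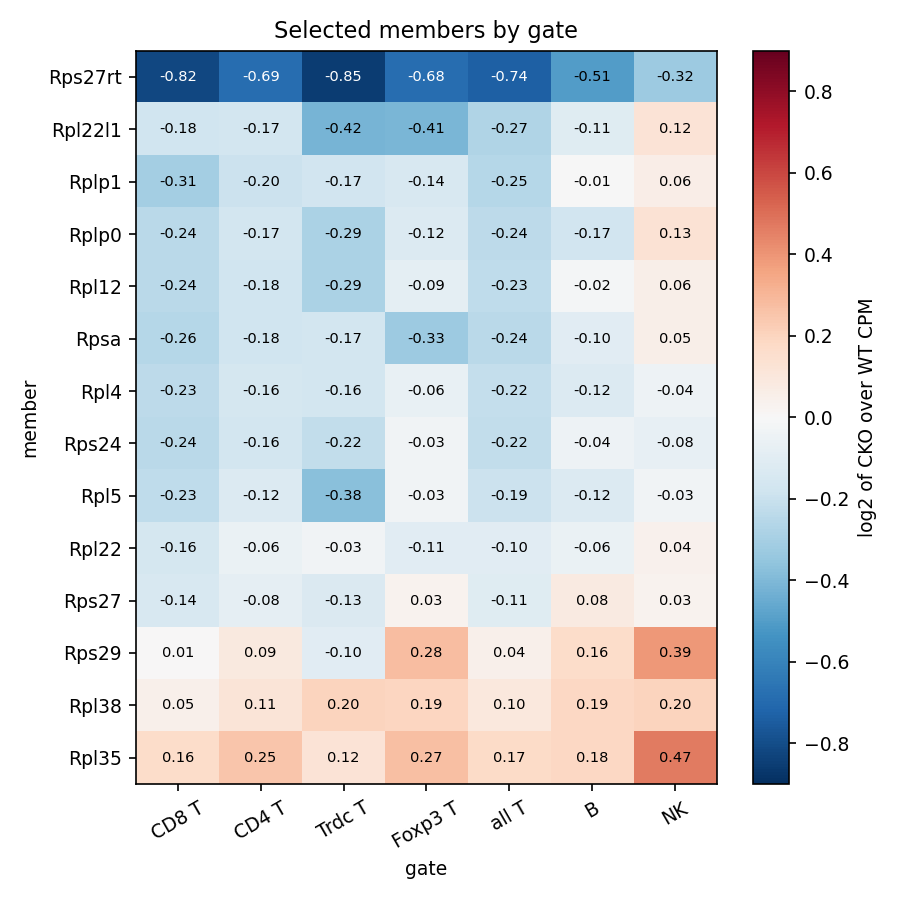
Log2 of CKO over WT CPM for 14 members described in the text (rows) in 7 gates (columns); blue is lower and red higher in CKO, and the number in each cell is the value. Rps27rt is lower in every gate, the stalk genes are lower in the T gates and near 0 or above in NK cells, and Rpl35 is higher in every gate.

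Among the near-copies, Rps27rt had the lowest ratio of the 81 members in T and B cells. It is a copy of Rps27 without introns: Rps27 has 4 exons on chromosome 3 (chr3:90212522-90213651, minus strand, GRCm38), and Rps27rt has 1 exon on chromosome 9 (chr9:114982366-114982739, minus strand). Their coding sequences in GENCODE M21 were identical over all 255 bases, which is why a read from this part cannot be assigned by its letters, and they are printed here for that reason.
Rps27: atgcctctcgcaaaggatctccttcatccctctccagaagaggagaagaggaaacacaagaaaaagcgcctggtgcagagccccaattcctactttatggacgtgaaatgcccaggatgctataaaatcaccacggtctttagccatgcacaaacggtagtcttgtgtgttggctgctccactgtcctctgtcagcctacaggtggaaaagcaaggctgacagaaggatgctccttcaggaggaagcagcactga
Rps27rt: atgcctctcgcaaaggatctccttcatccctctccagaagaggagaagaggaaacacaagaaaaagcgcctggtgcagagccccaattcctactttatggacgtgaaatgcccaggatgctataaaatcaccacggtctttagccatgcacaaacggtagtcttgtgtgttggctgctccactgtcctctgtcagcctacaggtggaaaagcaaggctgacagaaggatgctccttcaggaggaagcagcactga
The identity runs on into both ends. The transcripts shared 1 run of 341 bases, bases 5 to 345 of the 345 in Rps27 and bases 1 to 341 of the 374 in Rps27rt. Only the last 33 bases of Rps27rt, 32 of them A, lay outside that run. The sources used here do not say how the counting placed reads that fit both genes, so the division of UMIs between the pair is uncertain.

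Rps27rt took 5.13% (5.06 to 5.21) of the UMIs of the pair in WT T cells and 3.38% (3.28 to 3.48) in CKO T cells. In B cells it took 5.44% (5.28 to 5.60) and 3.69% (3.61 to 3.77), and in NK cells 4.71% and 3.72%, with intervals that overlapped. The share was thus lower in CKO in T and B cells alike, and in each library it was similar in both. In CPM, Rps27rt stood at 347 and 208 in T cells (ratio 0.600, 0.581 to 0.620), at 327 and 231 in B cells (0.704, 0.678 to 0.732) and at 181 and 145 in NK cells (0.799, 0.618 to 1.04). Rps27 itself stood at 0.929 in T and 1.06 in B cells. The 5 pseudogene symbols that the rule left out together had ratios of 0.739 (0.713 to 0.766) in T and 0.783 (0.748 to 0.821) in B cells.

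Rpl22l1 is a paralog of Rpl22 with its own exons and 67.5% identity in the aligned coding sequence, and the longest run the 2 transcripts shared was 26 bases. It took 32.1% of the UMIs of the pair in WT T cells and 29.6% in CKO T cells. The difference was widest in cells with Trdc (32.1% and 26.5%) and with Foxp3 (28.5% and 24.4%), and small in B cells (27.3% and 26.6%). In cells with Trdc its level was 1022 CPM in WT and 764 CPM in CKO (ratio 0.747, 0.703 to 0.795), and in Foxp3 cells 921 and 693 CPM (0.753, 0.696 to 0.813). In NK cells, with 273 and 892 UMIs, the ratio was 1.09, and its interval held 1. Rpl36al, with 87.9% coding identity to Rpl36a, took 31.2% of its pair in WT and 32.6% in CKO T cells, and 36.3% and 35.0% in B cells. Rpl7l1, with 54.5% identity to Rpl7, lay near the level required, at 51.6 and 57.5 CPM in T cells (1.11, 1.04 to 1.19).

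**Figure D5:**
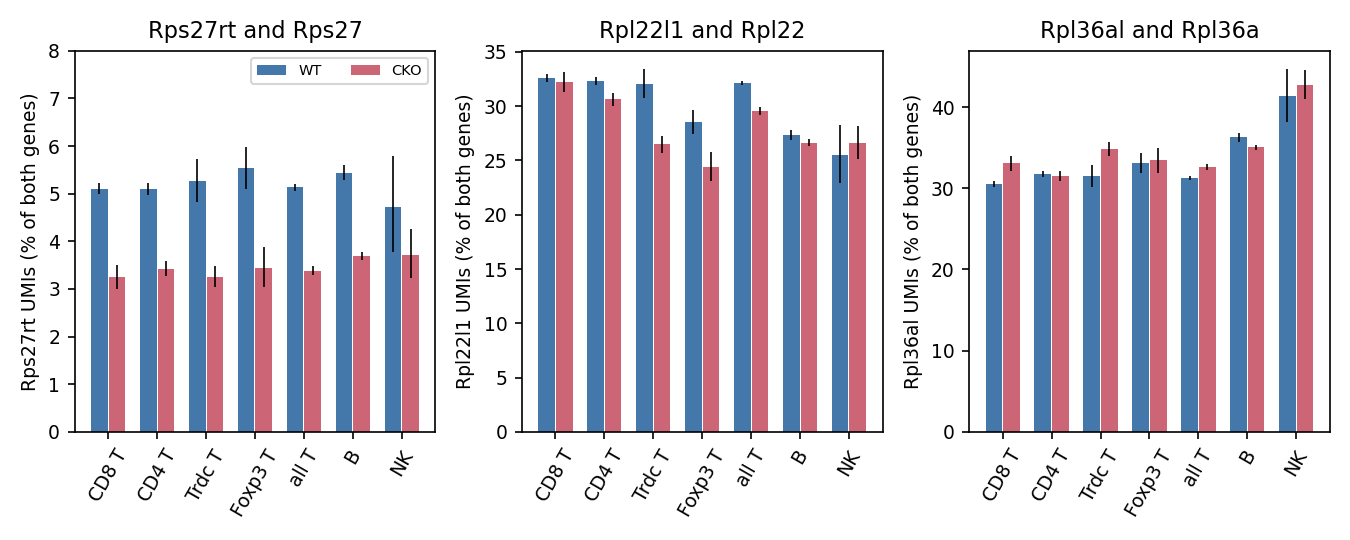
UMIs of 3 near-copies as a percentage of the UMIs of copy and parent together (y axes, each from 0) by gate (x axis) for WT and CKO; error bars are exact 95% binomial intervals for counting error. Rps27rt is lower in CKO in every gate, Rpl22l1 mainly in the Trdc and Foxp3 gates, and Rpl36al has no common direction.

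Rpl39l is a paralog of Rpl39 known from male germ cells, and most of its UMIs here were in T cells. It had 181 UMIs in 97 WT T cells and 25 UMIs in 11 CKO T cells, or 3.43 and 1.12 CPM (ratio 0.328, 0.207 to 0.500). The interval treats each UMI as independent, although there were fewer such cells than UMIs, so it may be too narrow. B cells held 5 and 17 UMIs. In CD4 T cells there were 66 WT and 4 CKO UMIs, and in CD8 T cells 67 and 0. A floor of 3 counts is 0.933 CPM in the CKO CD8 cells, and the WT level was 3.38-fold above that floor. With the counting error of both libraries the CKO over WT ratio could be up to 0.374. Cells with Trdc held 1 WT and 9 CKO UMIs. These counts are small beside Rpl39, of which Rpl39l was 0.0707% in WT T cells. The coding sequences differ at 23 of 156 bases, shown in capitals, and the longest run their transcripts shared was 38 bases, so reads of the pair can be told apart in most places.
Rpl39: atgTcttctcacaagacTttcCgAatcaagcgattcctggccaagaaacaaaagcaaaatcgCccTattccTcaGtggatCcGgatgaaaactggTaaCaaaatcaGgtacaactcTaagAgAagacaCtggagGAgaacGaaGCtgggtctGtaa
Rpl39l: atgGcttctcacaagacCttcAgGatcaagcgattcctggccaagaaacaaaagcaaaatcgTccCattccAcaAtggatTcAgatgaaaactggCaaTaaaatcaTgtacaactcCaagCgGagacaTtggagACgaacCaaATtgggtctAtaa
Of the remaining symbols, Rpl3l had 1 UMI in WT T cells and 1 in CKO NK cells, Rpl10l had none in any gate, and Rps19bp1 stood at 30.6 and 32.1 CPM in T cells (1.05, 0.958 to 1.15).

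Cell types within each library differed more than the genotypes did. All 77 standard members were at a higher CPM in T than in B cells in WT, by up to 1.93-fold (Rplp0) with a median of 1.28, and 75 were in CKO, with a median of 1.22. Rplp1 (1.71), Rpl5 (1.71) and Rpl12 (1.71) followed Rplp0 in WT, and in CKO stood at 1.44, 1.62 and 1.48. All 77 were lower in NK than in T cells in WT, from 0.383 (Rpl12) to 0.953 (Rpl10), and 76 were in CKO. The summed share relative to B cells of the same library was 1.32 in WT and 1.24 in CKO for T cells, 1.30 and 1.27 for CD4 cells, and 0.809 and 0.872 for NK cells. The median cell of each gate held UMIs of all 77 standard members. UMIs of transcript ends are counts of molecules and were not divided by length.

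Longer members tended to have lower ratios, with small differences in size. Over the 77 standard members, the log2 ratio had a Pearson correlation with log2 coding length of -0.31 in T, -0.47 in B and -0.27 in NK cells. It is a description only, since all members share their libraries. Shorter and longer members around the median of 459 bases had medians of -0.12 and -0.12 in T cells, and -0.043 and -0.068 in B cells.

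Start sites were inspected because a pyrimidine tract there marks this gene class. In RefSeq's promoter table (GRCm38.p6), 65 of the 85 members were matched, 57 of them standard. A run of at least 7 C or T letters on the transcribed strand that overlapped the 10 bases on either side of an annotated start was found in 31 of the 57 (54.4%), against 22.5% of 27025 genes. The windows below hold 15 bases before and 15 after the start, with such runs in capitals, for stalk genes and Rpsa at the low end and for Rpl35 and Rpl38 at the high end.
Rpl12 (chr2:32961697-32961726, plus strand): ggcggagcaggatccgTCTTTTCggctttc
Rplp2 (chr7:141447636-141447665, plus strand): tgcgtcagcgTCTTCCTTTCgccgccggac
Rplp0 (chr5:115559452-115559481, plus strand): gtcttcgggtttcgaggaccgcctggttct
Rpsa (chr9:120127751-120127780, plus strand): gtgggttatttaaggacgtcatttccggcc
Rpl35 (chr2:39005117-39005146, minus strand): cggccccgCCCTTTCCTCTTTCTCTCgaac
Rpl38 (chr11:114668565-114668594, plus strand): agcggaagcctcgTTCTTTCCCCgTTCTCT
Tracts stood at both ends of the range of ratios, in Rpl12 and Rplp2 as in Rpl35 and Rpl38, and the windows of Rplp0 and Rpsa held none of these letters in a run of that length. Members with a tract had a median log2 ratio of -0.11 in T cells and those without -0.15, and in B cells -0.052 and -0.065. An annotated start can lie some bases away from the one used in a cell, so a window without a tract says only that the letters were not found there.

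Genes that work with the ribosome were compared in the same way, from lists chosen by function, where 21.8% of all genes were lower in T cells and 38.0% in B cells. Rack1, a scaffold on the small subunit, and Fau, a fusion with eS30, are ribosomal proteins whose symbols the rule does not match, and their ratios in T cells were 0.893 and 0.931. Both were also below 1 in B cells. Of 20 translation factors and related genes, 17 were lower in T cells (median -0.079) and 19 in B cells (-0.079). They included Eef1b2, which recharges eEF1A with GTP, at 2243 and 1929 CPM in T cells (0.860, 0.850 to 0.869), and Tpt1, at 11260.4 and 9848 CPM (0.875). Of 7 snoRNA host genes, which also start with pyrimidine tracts, 6 were lower in T cells (-0.10) and 1 of 5 in B cells.

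In other lists most genes were higher in T cells, as were most of all genes (median 0.091). Of 16 ribosome biogenesis genes, 5 were lower (median 0.026), and Nop56, a box C/D snoRNP protein, stood at 140 and 156 CPM (ratio 1.12, 1.08 to 1.17). Of 39 mitochondrial ribosomal protein genes, 9 were lower in T cells (median 0.060), a share near the 21.8% of all genes, and in B cells 30 of 35 were lower (median -0.057), beside 38.0% of all genes. Both T cell medians turned below 0 on totals without ribosomal protein and mitochondrial genes, at -0.049 and -0.016, so their direction rests on the scaling, while the members then stood at -0.20. Of 9 TORC1 pathway genes, 3 were lower and 6 higher (median 0.081). Ddit4, which restrains TORC1, was the lowest at 60.9 and 35.3 CPM (0.579, 0.535 to 0.626), and Larp4 and Larp1, RNA-binding proteins of the LARP family, were the highest at 1.16 and 1.12. Of 4 genes of the MYC network, 1 was lower and 3 higher (median 0.13). Myc stood at 55.7 and 45.6 CPM (0.819) and Mxd1, which opposes MYC, at 28.6 and 62.6 CPM (2.19, 2.03 to 2.35).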

How the data were processed

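Lymph node cells were captured with 10x Genomics 3′ chemistry v3.1, 1 library per genotype, per the labels' protocols. The authors deposited raw UMI counts of 32285 genes in each barcode, without normalization. Cell Ranger made them: version 6.0.2 per the file headers, but 5.0.0 per the submitters' processing notes, which add Seurat 4.0.3 and the build mm10, so the version is uncertain.

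Barcodes under 500 UMIs or 200 genes, or over 10% mitochondrial UMIs (306 WT, 437 CKO), were removed. Doublets were scored with Scrublet in Scanpy 1.11.5 and the top cells left out at 0.8% per 1000 barcodes, 1304 in WT and 1513 in CKO. Gates used raw UMIs. Of the kept cells, 624 WT and 725 CKO cells fell in none of the T, B and NK gates, and 8 WT and 17 CKO cells fell in both the T and NK gates.

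Counts were summed per gate and library and scaled to CPM. CPM have exact Poisson intervals, shares exact binomial (Clopper-Pearson) intervals and ratios exact conditional binomial intervals (SciPy 1.17.1), at 95% and for counting error only. The ratio and its interval were tested on simulated Poisson counts without variation between cells or animals, so that test covers counting error only. Members at 50 CPM in a library were counted at a ratio of 0.8 or less or its inverse or more, and past 1.1-fold and set beside all genes at that level. Named were the 5 highest and 5 lowest members by ratio in T and in B cells, the 3 and 3 in the other gates, the 5 that differed most between T and B cells each way, the 10 most abundant in T cells, near-copies with parents, X-linked members and members with known roles, as well as the 2 highest and 2 lowest genes of each list. Rps2, Rpl4, Rplp2 and the plasma cell and cycling markers were named after their values were seen. Some members and genes under this rule, and a division of CD4 and CD8 cells, are not reported here. The members and lists were chosen with earlier results of these data known. Coding sequences and positions come from GENCODE M21 (GRCm38) and start windows from RefSeq (GRCm38.p6). The alternatives tried were other totals, doublets kept, a mitochondrial limit of 20%, stricter gates, a depth window, equal weights of cells and fixed T cell make-up.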

Additional observations from a re-analysis of the deposited data

Results flagged for a closer look

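The summed members stood higher in CKO than in WT in NK cells, at a log2 ratio of 0.068, and lower in T cells, at -0.13. The opposite direction of the 2 gates under the same comparison is why it is given here, and the difference between the gates was not tested. The NK gate held 80 WT cells. Its cells also carried B and T cell marker transcripts in unequal sums between the libraries, and their part in the ratio was not tested. The NK value was 0.029 in cells with 3000 to 8000 UMIs and 0.028 with every cell weighted equally. In the 2 ranges of depth with enough NK cells it was below 0, as in T cells, at -0.13 for 4000 to 5000 UMIs and -0.022 for 5000 to 6000 UMIs.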

How the results depend on the processing

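Under the alternatives given here the summed log2 ratio turned its sign in Foxp3 T cells with the stricter gate, where it was 0.012 against -0.010. Within single ranges of depth it also turned, to -0.13 and -0.022 in NK cells and to 0.17 in B cells with 12000 UMIs or more. On totals without ribosomal protein and mitochondrial genes it was -0.20 in T, -0.051 in B, 0.090 in NK, -0.11 in CD4, -0.25 in CD8, -0.020 in Foxp3 and -0.22 in Trdc cells. With the median ratio of other genes set to 1 it was -0.22 in T, -0.081 in B, 0.096 in NK, -0.14 in CD4, -0.29 in CD8, -0.037 in Foxp3 and -0.22 in Trdc cells; this scaling moved all genes by -0.13 in CD8 cells and by less than 0.1 elsewhere. Keeping likely doublets gave -0.13 in T, 0.083 in NK, -0.071 in CD4, -0.018 in Foxp3 and -0.15 in Trdc cells. The stricter gate gave -0.12 in T and -0.17 in CD8 cells. Cells with 3000 to 8000 UMIs gave -0.12 in T, -0.054 in B, 0.029 in NK, -0.080 in CD4, -0.15 in CD8 and -0.16 in Trdc cells. Equal weight for every cell gave -0.13 in T, -0.054 in B, 0.028 in NK, -0.083 in CD4, -0.16 in CD8 and -0.14 in Trdc cells. Chosen after seeing the data, the T subset make-up as in WT gave -0.11 and as in CKO -0.094 in T cells, and Trdc cells with no Cd4 or Cd8b1 UMI gave -0.049. The cause of these shifts was not tested. Members at 0.8 or less, or above 1 by as much, numbered 1 in T cells (1.42% of all genes lower, 6.12% higher). There were 3 on totals without ribosomal protein and mitochondrial genes (Rpl22l1, Rplp1 and Rps27rt) and 6 with the median ratio set to 1 (also Rpl12, Rplp0 and Rpsa). These scalings moved every gene in T cells, by -0.076 and -0.095, and the shares of all genes under them are not given here. On totals of all genes 38 members passed 1.1-fold in T cells (6.08% of all genes lower, 33.4% higher). In B cells 1 member passed the wider limit (2.15% lower, 2.52% higher) and 8 the narrower (8.41% lower, 17.8% higher). In T cells Rps29 and Rps19bp1 were among the named members that turned lower under both scalings, and in B cells Rpl10 and Rps19bp1 did so with the median ratio set to 1. Rpl39l in B cells, with 5 and 17 UMIs, was -0.16 with likely doublets kept. No paired analysis was possible because each genotype has 1 library. Depth limits Rpl39l, Rpl3l and Rpl10l in all gates, Rpl7l1 and Rps19bp1 in the smaller T gates (Rpl7l1 0.717 to 1.22 in Foxp3 and 0.705 to 1.21 in Trdc cells, Rps19bp1 0.928 to 1.94 in Trdc cells), and the gates of 80 WT NK cells and 83 WT Trdc cells without a co-receptor UMI.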
